A study of Mus musculus with 16 samples.

Results

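The 37 genes described here code for the machinery of DNA replication and cell division, and their messages were followed in mouse liver across diet and feeding state. They are a list of known proliferation genes, put together with earlier results of these data in view and with no measured value in its rule. It holds 13 genes of replication licensing and the fork, 4 of nucleotide supply, 4 of G1/S control, 2 of S phase chromatin and 14 of G2/M and mitosis. All 37 were found among the 51912 genes of the count table by identifier, and 30 had enough counts to be tested. RNA was taken from 16 liver samples of male mice aged 13 weeks, 1 library each, with the strain and genotype not given in the labels. Low isoleucine mice had eaten, since the age of 10 weeks and so for 3 weeks, a diet poor in the branched-chain essential amino acid isoleucine, and control mice a control diet. A fast of 16 h is recorded for all 16 samples, those of refed mice included, and the length of refeeding is not given here. Livers were collected fasted or refed, which gave 4 low isoleucine refed, 4 control refed, 4 low isoleucine fasted and 4 control fasted libraries.

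Before a cell copies its genome, the Cdc6 and Cdt1 proteins load rings of the Mcm2 to Mcm7 subunits onto replication origins. Cyclin D and cyclin E with their kinases, acting through the retinoblastoma proteins and the E2F factors, open S phase. Cdc45 and the GINS proteins then complete the active helicase, Pcna clamps the polymerases to DNA, and ribonucleotide reductase and thymidylate synthase supply the nucleotides. Cyclin B with Cdk1, the Aurora and Polo kinases, and the spindle checkpoint proteins Bub1 and Bub1b carry the cell through mitosis. Most hepatocytes of an adult liver are outside the cell cycle, although many are polyploid and can re-enter it after loss of tissue.

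Total counts ran from 30405595 to 33822517 in low isoleucine refed, from 24368656 to 33432158 in control refed, from 29460888 to 34002955 in low isoleucine fasted and from 28538541 to 32751692 in control fasted libraries. Levels are given as TMM-normalised CPM, which are read counts scaled to a common library size and corrected for library composition. All 8 hepatocyte markers examined were detected in the tested set. Control refed library 4 stood apart, with a TMM factor of 1.21 against 0.925 to 1.07 in the other 15 libraries, and with the highest summed markers of the 16 for 6 other cell types. These sums were 446 CPM for Kupffer cells, 240.4 for endothelial, 514 for stellate, 29.4 for B and plasma cells, 5.46 for T and NK cells and 6.53 for neutrophils. The B and plasma cell sum was 2.81 to 14.5 CPM in the other 15 libraries. In whole liver, fewer cells of a type and less RNA per cell cannot be told apart. The labels also carry 1 number per group (1, 2, 7 or 9), whose meaning cannot be told apart from diet and feeding state.

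Per kilobase of exon, averaged over the 16 libraries, the levels of the 37 genes spanned from 9.11 CPM per kb for Mcm10 to 0.0116 CPM per kb for Bub1. Mcm10, which helps to start the fork, was followed by Pcna at 8.49, Ccnd1 (cyclin D1) at 4.23, Tk1 (thymidine kinase) at 2.76 and Mcm7 at 2.2 CPM per kb. The mitotic genes were scarcer than these 5, from 0.497 CPM per kb for Aurka down to Bub1. Licensing and fork genes also lay in that range, among them Cdt1 (0.321), Cdc45 (0.276), Mcm5 (0.24), Mcm2 (0.234) and Cdc6 (0.0363 CPM per kb). Mcm10, the most abundant member, had 50.9, 63.3, 54.7 and 69.9 CPM in low isoleucine refed, 84.9, 63.8, 66.1 and 67.4 in control refed, 70.5, 64.2, 60.4 and 68.2 in low isoleucine fasted and 87, 69.5, 94.3 and 85.5 in control fasted livers. It passed in none of the 7 comparisons made. The group mean was highest in control refed livers for 27 of the 37 genes, in low isoleucine refed for 2, in low isoleucine fasted for 2 and in control fasted for 6. The single highest library was a control refed one for 28 of 37 genes, and these were spread over library 1 (4 genes), library 2 (9), library 3 (3) and library 4 (12). The share of all genes that were highest in control refed livers, by mean or by library, was not counted.

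**Figure D1:**
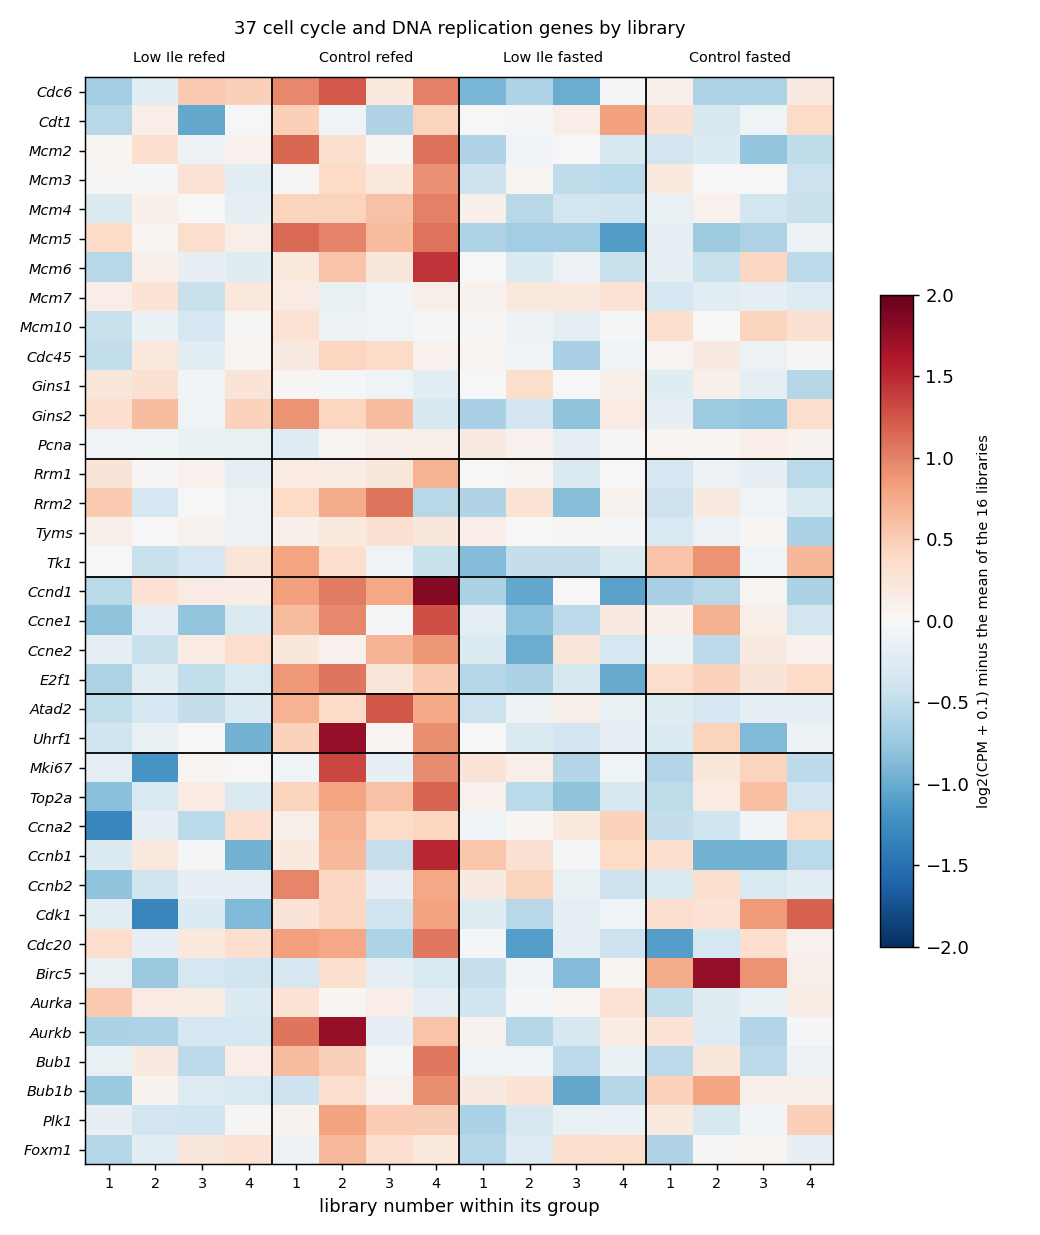
Levels of the 37 genes (rows, by role) in the 16 libraries (columns, by group), coloured by the difference of each log2 CPM from the gene's mean over the 16 libraries. The control refed columns hold the highest library of 28 of the 37 genes, a share that was not counted over all genes.

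The members' promoters are printed for 4 genes whose levels differed with feeding or diet and that hold E2F or CHR motifs, to show where these lie. RefSeq promoters (GRCm38.p6) were matched for 28 of the 37 genes, and the 250 bases before the transcription start were searched on both strands for the E2F letters TTTNNCGC, the CHR letters TTTGAA and the letters CCAAT. Each sequence runs 5′ to 3′ on the gene's strand and ends at the base before the start. Capitals mark any of these motifs, and neighbouring matches can share letters. The genes are Mcm5 (chr8:75109259-75109508, plus strand), Mcm6 (chr1:128359706-128359955, minus strand), Mcm2 (chr6:88898781-88899030, minus strand) and Cdk1 (chr10:69352913-69353162, minus strand).
Mcm5: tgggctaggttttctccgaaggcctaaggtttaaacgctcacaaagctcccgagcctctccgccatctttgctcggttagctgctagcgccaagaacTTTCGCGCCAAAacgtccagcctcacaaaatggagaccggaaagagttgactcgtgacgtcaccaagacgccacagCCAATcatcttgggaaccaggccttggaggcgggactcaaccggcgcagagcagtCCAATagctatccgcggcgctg
Mcm6: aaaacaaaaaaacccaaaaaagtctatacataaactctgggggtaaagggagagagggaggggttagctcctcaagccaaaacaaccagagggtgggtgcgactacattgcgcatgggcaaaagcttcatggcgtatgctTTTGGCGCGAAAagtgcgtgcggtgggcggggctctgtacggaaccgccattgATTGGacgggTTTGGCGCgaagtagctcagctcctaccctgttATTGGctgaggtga
Mcm2: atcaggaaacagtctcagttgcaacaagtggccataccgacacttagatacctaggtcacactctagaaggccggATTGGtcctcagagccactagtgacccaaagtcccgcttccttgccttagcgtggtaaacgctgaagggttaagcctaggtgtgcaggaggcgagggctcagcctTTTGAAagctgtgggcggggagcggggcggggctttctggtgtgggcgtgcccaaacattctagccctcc
Cdk1: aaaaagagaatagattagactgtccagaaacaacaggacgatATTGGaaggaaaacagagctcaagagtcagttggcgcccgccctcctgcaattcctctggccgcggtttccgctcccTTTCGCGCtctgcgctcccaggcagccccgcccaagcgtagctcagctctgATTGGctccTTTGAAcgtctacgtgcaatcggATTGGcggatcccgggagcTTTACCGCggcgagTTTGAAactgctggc
Mcm5 carried overlapping E2F matches that begin 153 and 149 bases before the start, and CCAAT matches at 77 and 22 bases. Mcm6 carried E2F matches at 110, 106 and 47 bases and CCAAT matches at 57 and 14 bases. Mcm2 held a CHR match at 70 bases and a CCAAT match at 175 bases, with no E2F letters in this window. Cdk1 held all 3 kinds, with E2F at 131 and 29 bases, CHR at 71 and 15 bases and CCAAT at 208, 80 and 48 bases. These distances depend on the annotation, since in GENCODE M21 the outermost start lies 60 bases further downstream for Mcm5, 41 bases further downstream for Mcm6 and 26 bases upstream, inside the printed window, for Cdk1, while that of Mcm2 is the same. Of the 28 matched genes 7 had the same outermost start in both annotations, and for 13 GENCODE began further upstream. Other members that passed in a comparison and had a matched promoter held no E2F or CHR letters. Mcm3 and Rrm1 held CCAAT letters alone, and the windows of E2f1, Birc5 and Tyms held none of the 3 motifs. The E2f1 window lay inside the gene by GENCODE M21, whose outermost start is 466 bases further upstream. Bases before that start were not searched, so whether they hold these letters is not known here.

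Across the 28 matched promoters the E2F letters were found in 6 (21.4%), against 4.28% of all 32851 promoters of the same length. CCAAT letters stood in 21 of 28 (75%), against 33.8%, and CHR letters in 7 of 28 (25%), against 16%. By role, E2F letters were in 4 of 10 licensing and fork promoters and 1 of 11 mitotic ones, while CHR letters were in 2 of 10 and 5 of 11. Among these 4 were Cdc6 and Mcm7, whose outermost GENCODE M21 starts lie 350 and 539 bases further upstream. By that annotation their searched windows lay inside the gene. These matches describe the letters alone. Binding was not measured.

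The first question was how refeeding altered these genes on each diet. On the control diet, genes of the MCM helicase, nucleotide supply and cyclin D1 were higher in refed than in fasted livers. By the edgeR quasi-likelihood test with Benjamini-Hochberg adjustment over 14920 genes, 8 of 30 tested members rose and 1 fell, where 8.91% of all genes tested rose and 8.2% fell. Those that rose were Mcm2, Mcm4, Mcm5 and Mcm6 of the helicase, Rrm1 and Tyms of nucleotide supply, Ccnd1, and Atad2, a chromatin ATPase of S phase; Birc5 (survivin, a mitotic and anti-apoptotic protein) fell. On the low isoleucine diet 1 of 30 rose, Mcm5, and 0 fell, where 9.6% and 11.8% of all genes tested did. The unadjusted p was under 0.05 for 3 higher members and 0 lower ones on that diet, where 16.1% and 17.3% of all genes tested were so. DESeq2 and limma-voom each called the same 1 member, where they called 3639 and 3235 of all genes. The members' median log2 fold change was 0.04 on the low isoleucine diet and 0.60 on the control diet, against 0.02 and 0.01 over all genes tested. On the control diet 24 of 30 members were positive in value, where 51.3% of all genes tested were. Every refed library lay above every fasted one for 8 members and below for 0, where 9.5% and 9.62% of all genes tested were so. The 2 refeeding comparisons share no library.

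A gene can pass the filter on low counts through the 1 group where it is high, so the counts above do not cover all members. In a fit with no filter, 31 of the 37 genes had a positive log2 fold change on refeeding of control mice, with a median of 0.62. There 46.9% of 27589 genes were positive. In the same fit 20 of 37 were positive on the low isoleucine diet, with a median of 0.06, against 52.7% of all genes.

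**Figure D2:**
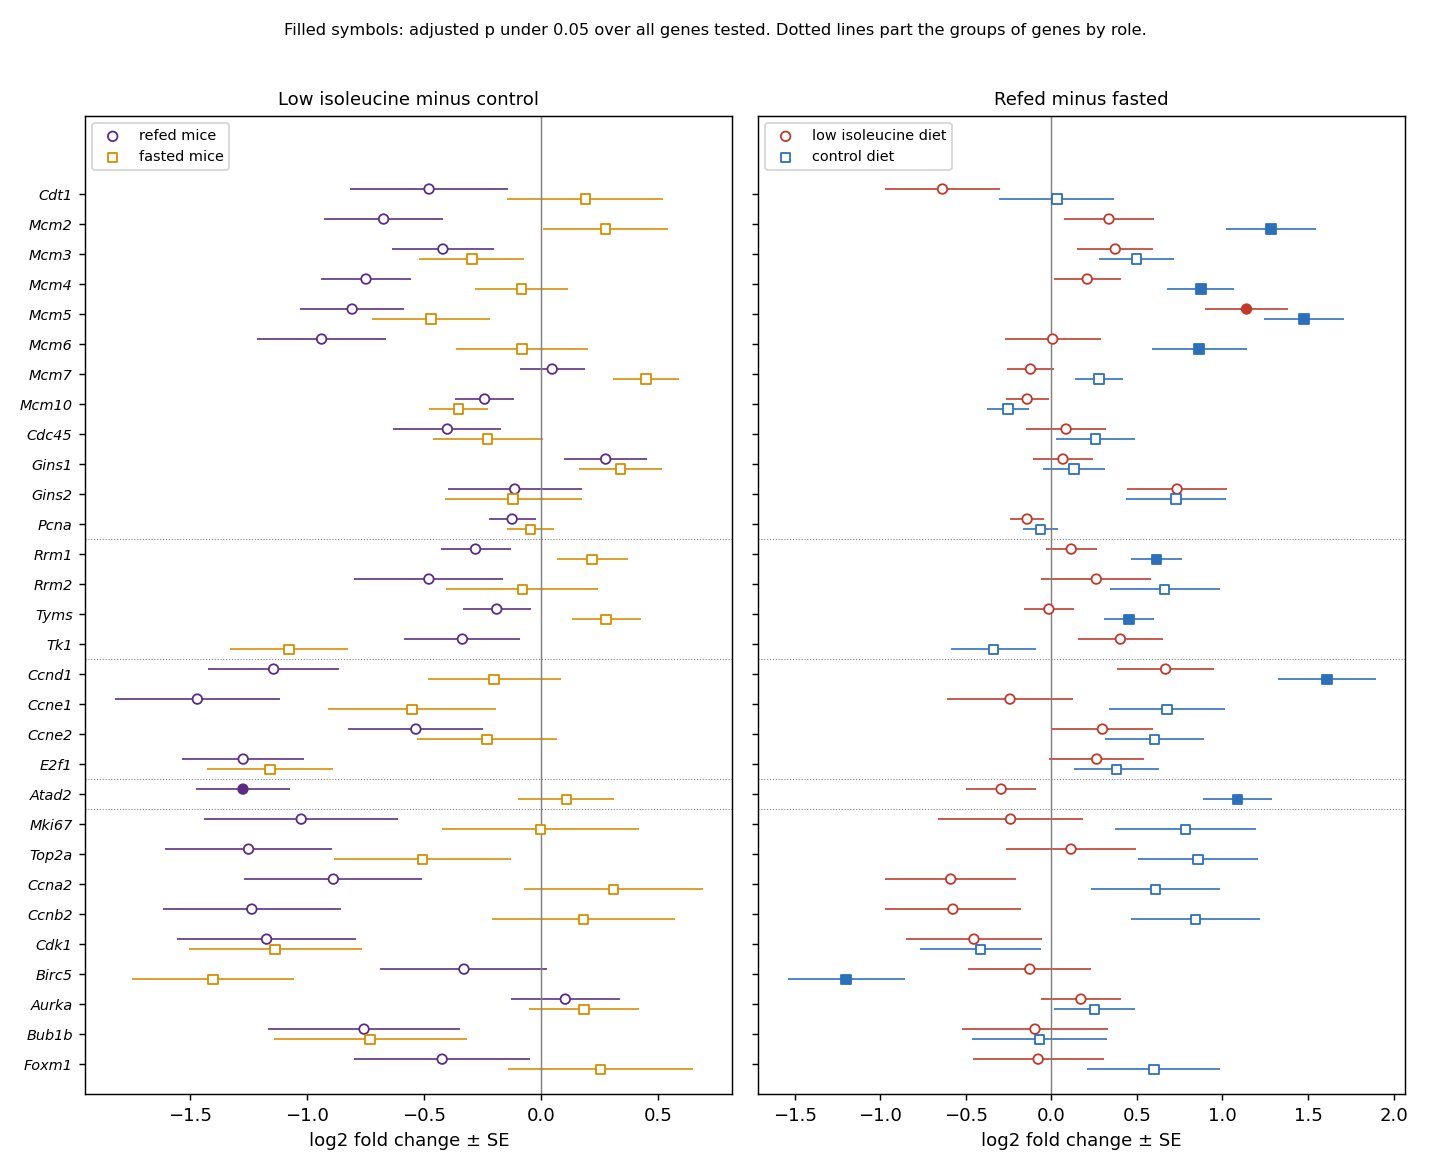
Log2 fold change ± SE of the 30 tested members (rows, grouped by role) between diets (left panel, for refed and fasted mice) and between feeding states (right panel, for each diet). Filled symbols passed an adjusted p of 0.05: Atad2 between diets in refed mice, Mcm5 on refeeding of low isoleucine mice, and 9 members on refeeding of control mice.

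Among the helicase subunits, Mcm5 rose on both diets. Its levels were 1.12, 0.868, 1.11 and 0.918 CPM in low isoleucine refed livers, against 0.514, 0.484, 0.482 and 0.336 CPM in low isoleucine fasted livers. In control livers they were 1.97, 1.78, 1.36 and 1.91 CPM when refed, against 0.746, 0.478, 0.518 and 0.77 CPM when fasted. The refed libraries were all above the fasted ones on each diet. The log2 fold change by edgeR was 1.14 (SE 0.242, adjusted p = 0.00304) on the low isoleucine diet and 1.48 (SE 0.234, adjusted p = 4.08e-04) on the control diet. Counts of Mcm5 ran from 11 to 77 reads per library. The gene (ENSMUSG00000005410) lies on chromosome 8 from 75109569 to 75128439 in GENCODE M21.

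Mcm2 had 3.46, 1.92, 1.56 and 3.35 CPM in control refed livers, against 1.14, 1.23, 0.83 and 1.03 CPM in control fasted livers, which did not overlap. In low isoleucine livers it had 1.56, 1.92, 1.38 and 1.61 CPM when refed, against 0.955, 1.45, 1.5 and 1.19 CPM when fasted, and these overlapped. By edgeR the log2 fold change was 1.28 (SE 0.263, adjusted p = 0.00311) on the control diet and 0.34 (SE 0.261, adjusted p = 0.4) on the low isoleucine diet. Mcm2 (ENSMUSG00000002870) lies on chromosome 6 from 88883474 to 88898780.

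Mcm4 had 3.78, 3.76, 4.15 and 5.58 CPM in control refed livers, against 2.45, 2.9, 2.11 and 1.99 CPM in control fasted livers. In low isoleucine livers the values were 2.23, 2.94, 2.72 and 2.41 CPM when refed and 2.94, 1.83, 2.11 and 2.05 CPM when fasted. The control groups did not overlap, and the low isoleucine groups did. Its log2 fold changes by edgeR were 0.87 (SE 0.196, adjusted p = 0.00568) on the control diet and 0.21 (SE 0.197, adjusted p = 0.499) on the low isoleucine diet.

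Mcm6 had 3.66, 4.7, 3.71 and 8.71 CPM in control refed livers, against 2.81, 2.29, 4.25 and 2.15 CPM in control fasted livers, so that control fasted library 3 exceeded 2 refed libraries. Low isoleucine livers had 2.11, 3.38, 2.78 and 2.64 CPM when refed and 3.12, 2.56, 2.89 and 2.29 CPM when fasted. The log2 fold change by edgeR was 0.86 (SE 0.277, adjusted p = 0.0412) on the control diet and 0.01 (SE 0.281, adjusted p = 0.99) on the low isoleucine diet. The control call rested on library 4, without which the log2 fold change was 0.485 (adjusted p = 0.161 by edgeR). It was also lost without low isoleucine fasted library 2 or 4, control fasted library 1, 2 or 4, or control refed library 2. Over these 7 omissions the adjusted p ran from 0.0502 to 0.161.

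Mcm3 passed in the mean of both diets alone. It had 2.67, 2.57, 3.2 and 2.24 CPM in low isoleucine refed and 2.65, 3.49, 3.03 and 5.04 CPM in control refed livers, against 1.95, 2.73, 1.81 and 1.77 CPM in low isoleucine fasted and 3.02, 2.59, 2.59 and 1.92 CPM in control fasted livers. Refed and fasted libraries overlapped on each diet. Its mean log2 fold change by edgeR was 0.44 (SE 0.157, adjusted p = 0.042), and the call was lost on leaving out any of 11 of the 16 libraries in turn (adjusted p 0.0579 to 0.0968), control refed library 4 among them. Mcm7 had control refed libraries above all control fasted ones (10.8, 8.7, 9.22 and 10.4, against 7.61, 8.19, 8.43 and 8.02 CPM), with a log2 fold change of 0.28 (SE 0.141, adjusted p = 0.2) by edgeR that did not pass. Reads of Mcm7 can be shared with overlapping exons of Ap4m1 and Cops6 on the other strand, and the strand setting of the authors' counting is not given in the sources used here.

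Gins2, a subunit of the GINS part of the helicase, also passed in the mean of both diets. It had 10.5, 12.8, 7.81 and 11.4 CPM in low isoleucine refed and 15.6, 11.2, 12.8 and 6.6 CPM in control refed livers, against 5.25, 6.36, 4.7 and 9.29 CPM in low isoleucine fasted and 7.36, 4.95, 4.87 and 10.6 CPM in control fasted livers. The mean log2 fold change by edgeR was 0.73 (SE 0.206, adjusted p = 0.0114), with 0.73 on the low isoleucine diet and 0.73 on the control diet. Its interaction estimate of diet and feeding, 0.01, was the nearest to 0 of the 30, although control refed library 4 lay below control fasted libraries 1 and 4. All 16 of its deposited counts were not whole, so some of its reads were assigned only in part to this gene. Exons of Gins2 overlap those of Gse1 on the other strand. In that mean over diets 8 of 30 tested members rose and 1 fell, where 16.4% of all genes tested rose and 16.5% fell. Beside Mcm3 and Gins2 these were Mcm2, Mcm4, Mcm5, Rrm1, Ccnd1 and Atad2, with Birc5 lower.

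The clamp gene Pcna did not pass in any comparison. Its means were 18.8 ± 0.501 CPM in low isoleucine refed, 20.5 ± 2.33 in control refed, 20.8 ± 2.14 in low isoleucine fasted and 21.4 ± 0.649 in control fasted livers (SD, n = 4 each). Its log2 fold changes on refeeding were -0.14 (SE 0.1, adjusted p = 0.35) on the low isoleucine and -0.06 (SE 0.1, adjusted p = 0.74) on the control diet, by edgeR. Cdt1, Cdc45, Gins1 and Mcm10 did not pass in any comparison, and neither did Mcm7.

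**Figure D3:**
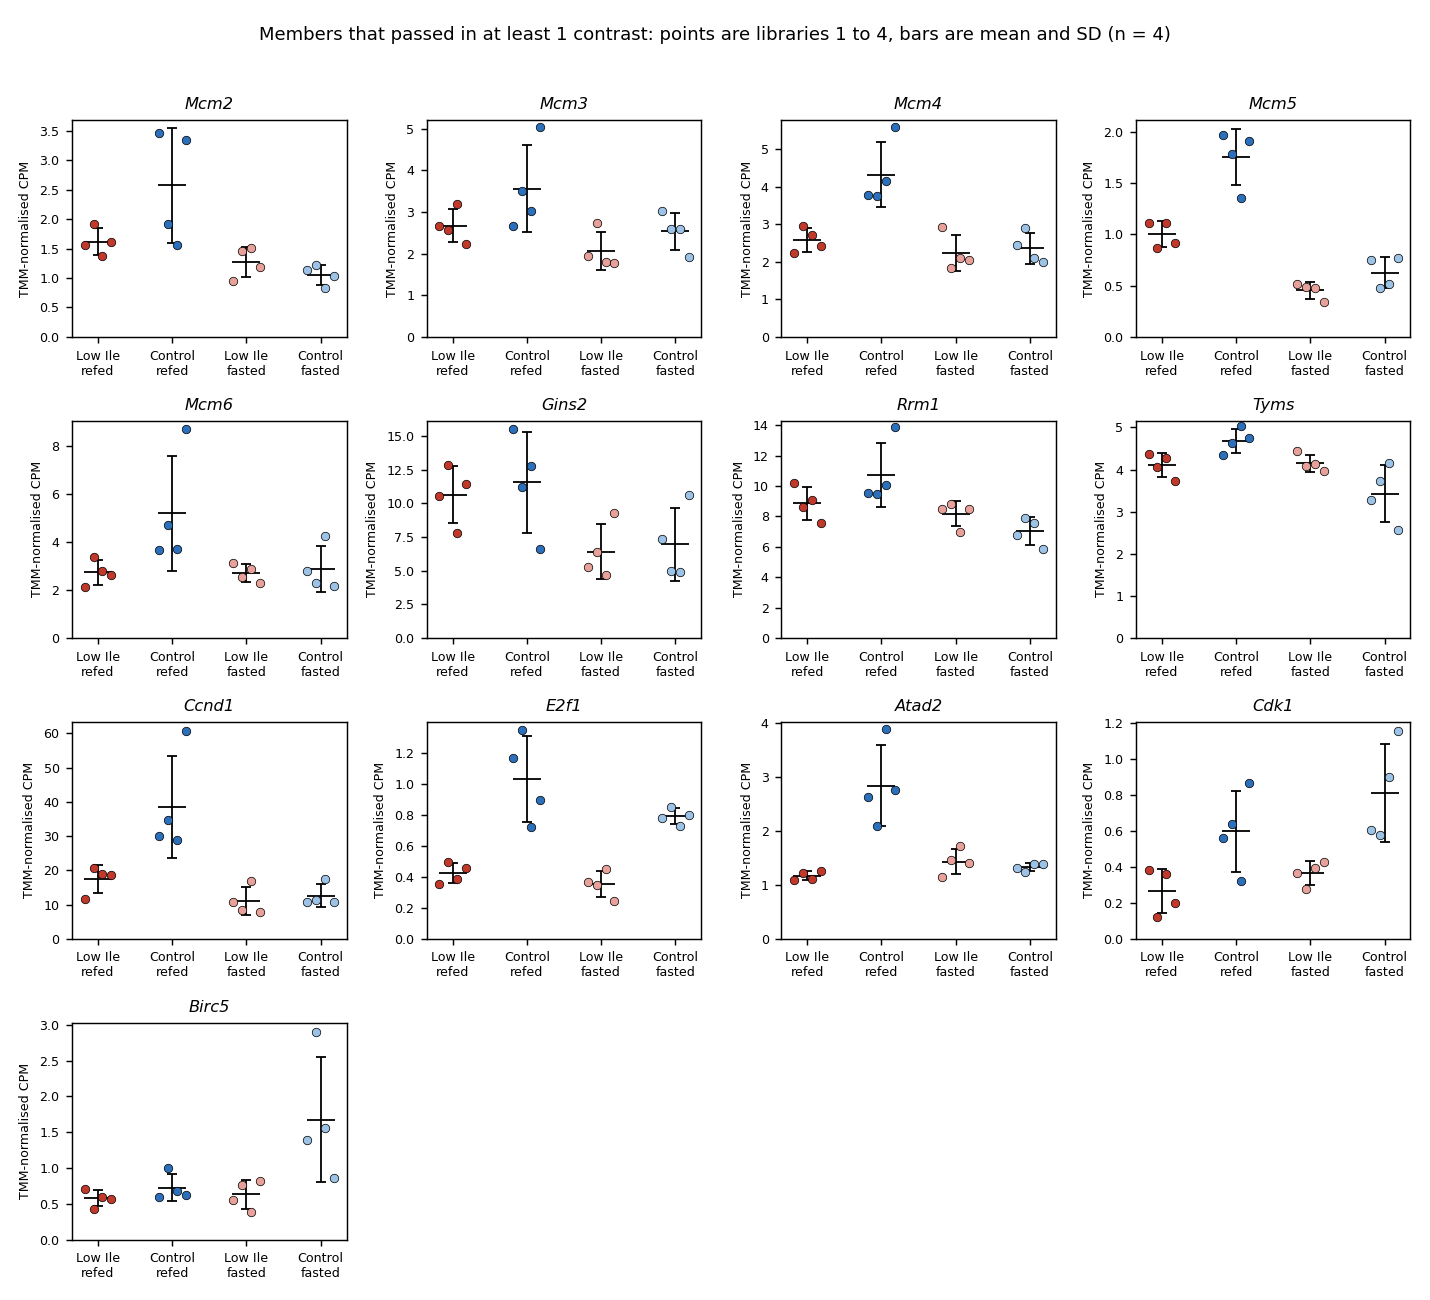
TMM-normalised CPM of the 13 members that passed in at least 1 comparison, per library (points), with the mean and SD of each group of 4 (bars). Refed control libraries of Mcm5 (1.36 to 1.97 CPM) and Atad2 (2.08 to 3.87 CPM) lie above every library of the other groups.

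Of nucleotide supply, 2 of 4 members rose on refeeding of control mice and 0 of 4 passed on the low isoleucine diet, where 8.91% of all genes tested rose on the control diet and 9.6% rose and 11.8% fell on low isoleucine. Rrm1, the large subunit of ribonucleotide reductase, had 9.57, 9.47, 10.1 and 13.9 CPM in control refed livers, against 6.75, 7.92, 7.6 and 5.87 CPM in control fasted livers. In low isoleucine livers it had 10.2, 8.65, 9.1 and 7.55 CPM when refed and 8.48, 8.84, 6.95 and 8.46 CPM when fasted. The control groups did not overlap, and the low isoleucine groups did. The log2 fold change by edgeR was 0.61 (SE 0.151, adjusted p = 0.0102) on the control diet and 0.12 (SE 0.15, adjusted p = 0.639) on the low isoleucine diet. Without control refed library 4, its highest, the control value was 0.46 with an adjusted p of 0.0332 by edgeR.

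Tyms, thymidylate synthase, had 4.34, 4.63, 5.03 and 4.74 CPM in control refed livers, against 3.27, 3.72, 4.14 and 2.57 CPM in control fasted livers. Low isoleucine livers had 4.38, 4.06, 4.28 and 3.73 CPM when refed and 4.44, 4.08, 4.12 and 3.97 CPM when fasted. The low isoleucine fasted range overlapped the control refed range. The control log2 fold change by edgeR was 0.45 (SE 0.148, adjusted p = 0.044), and the call was lost without any of 13 of the 16 libraries in turn (adjusted p 0.0519 to 0.139). Rrm2, the small reductase subunit, did not pass (0.26 on the low isoleucine and 0.66 on the control diet), although without control refed library 4 it was called on the control diet. Tk1 went the other way in value on the control diet, with 23.3, 16.9, 12.8 and 9.85 CPM in refed livers, against 20.1, 25.1, 12.6 and 21.4 CPM in fasted livers (log2 fold change -0.34 (SE 0.247, adjusted p = 0.406) by edgeR).

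Of G1/S control, Ccnd1 had the largest log2 fold change on refeeding of control mice among the 30 tested members. It had 29.9, 34.7, 28.8 and 60.6 CPM in control refed livers, against 10.7, 11.4, 17.5 and 10.9 CPM in control fasted livers. In low isoleucine livers it had 11.6, 20.6, 19 and 18.7 CPM when refed, against 10.8, 8.29, 16.9 and 7.94 CPM when fasted. All control refed libraries lay above the other 12. The log2 fold change by edgeR was 1.61 (SE 0.286, adjusted p = 0.00127) on the control diet, 0.67 (SE 0.283, adjusted p = 0.107) on the low isoleucine diet and 1.14 (SE 0.201, adjusted p = 4.25e-04) in the mean of both. Control refed library 4 had the highest level, and without it the control value was 1.30 (adjusted p = 0.00254 by edgeR). Ccnd1 (ENSMUSG00000070348) lies on chromosome 7 from 144929931 to 144939925 and overlaps exons of LTO1 on the other strand, with none of its 16 counts whole. The other G1/S control genes, Ccne1 and Ccne2 (E cyclins) and E2f1, did not pass on refeeding on either diet, with log2 fold changes on the control diet of 0.68, 0.60 and 0.38.

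Atad2 had 2.61, 2.08, 3.87 and 2.75 CPM in control refed livers, against 1.31, 1.23, 1.38 and 1.38 CPM in control fasted livers. In low isoleucine livers it had 1.09, 1.21, 1.11 and 1.26 CPM when refed, against 1.14, 1.45, 1.72 and 1.41 CPM when fasted. The 4 control refed libraries stood above the other 12, and the lowest library of the 16 was a low isoleucine refed one. By edgeR the log2 fold change on refeeding was 1.09 (SE 0.202, adjusted p = 0.00149) on the control diet and -0.29 (SE 0.205, adjusted p = 0.345) on the low isoleucine diet. In the mean of both diets it was 0.40 (SE 0.144, adjusted p = 0.0421) by edgeR, a call lost without any of 13 of the 16 libraries in turn. Atad2 (ENSMUSG00000022360) lies on chromosome 15 from 58094044 to 58135082.

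That a gene passed on the control diet and not on the low isoleucine diet does not show that the responses differed, and the difference itself was therefore tested. By edgeR 0 of 30 members passed for the interaction of diet and feeding, as did 0% of all genes tested. Its unadjusted p was under 0.05 for 1 higher and 9 lower members, where 2.75% and 3.47% of all genes tested were so. Limma-voom called 0 members and DESeq2 called 1, Atad2, where they called 0 and 35 of all genes. Atad2 had the interaction estimate -1.38 (SE 0.288, adjusted p = 0.343) by edgeR. Among the others, Mcm2 had -0.95 (SE 0.369, adjusted p = 0.723), Mcm6 -0.86 (SE 0.394, adjusted p = 0.796), Ccnd1 -0.94 (SE 0.398, adjusted p = 0.763) and Mcm5 -0.34 (SE 0.339, adjusted p = 0.974), by edgeR. In value, 26 of the 30 interaction estimates were negative, with a median log2 of -0.40 against -0.02 over all genes tested; 52.3% of all genes tested were negative.

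The next question was how the diets differed in refed livers, a comparison that shares the control refed libraries with the refeeding of control mice. By edgeR 1 of 30 tested members fell on low isoleucine, Atad2, and 0 rose, where 0.114% of all genes tested fell and 0.0603% rose. The unadjusted p was under 0.05 for 13 lower and 0 higher members, where 5.8% and 3.95% of all genes tested were so. Members without overlap between the diets numbered 9 lower and 0 higher, where 2.24% and 2.2% of all genes tested were so. These 9 were Mcm4, Mcm5, Mcm6, Ccnd1, Ccne1, E2f1, Atad2, Top2a (topoisomerase II alpha) and Ccnb2 (cyclin B2). The median log2 fold change over the 30 was -0.51 against -0.01 over all genes tested, and 27 of 30 were negative, where 52.4% of all genes tested were. With no filter on low counts 34 of the 37 members were negative, with a median of -0.75, where 49.9% of all genes were negative. Without control refed library 4 the median over the tested members was -0.50.

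Atad2 averaged 1.17 ± 0.0836 CPM in low isoleucine refed livers and 2.83 ± 0.752 CPM in control refed livers (SD, n = 4 each). Its log2 fold change by edgeR was -1.27 (SE 0.202, adjusted p = 0.0156), and -1.30 (adjusted p = 0.0125) without control refed library 4. The call was lost without low isoleucine refed library 1 (adjusted p = 0.0711 by edgeR) or library 2 (adjusted p = 0.0582), at log2 fold changes of -1.24 and -1.29. In the authors' deposited table for refed livers, Atad2 had a log2 fold change of -1.28 and an adjusted p of 0.0142, and it was the 1 member called there among 39 genes. That authors' deposited table lists 28 of the 37 members.

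Members that did not pass between the refed diets had values of similar size. Ccne1 had 0.352, 0.589, 0.359 and 0.545 CPM in low isoleucine refed livers, against 1.13, 1.44, 0.679 and 1.84 CPM in control refed livers (log2 fold change -1.47 (SE 0.353, adjusted p = 0.122) by edgeR). Ccnd1, with the levels given above, had a log2 fold change between the refed diets of -1.14 (SE 0.281, adjusted p = 0.138) by edgeR. The helicase genes Mcm4, Mcm5 and Mcm6 had log2 fold changes of -0.75, -0.81 and -0.94, with adjusted p of 0.154, 0.197 and 0.242 by edgeR. Mcm7 and Gins1 were close to level or higher in value on low isoleucine (0.05 and 0.28). DESeq2 called Mcm4, Ccnd1, Ccne1, E2f1 and Atad2, and a fit of the refed groups alone called 0. Of all genes DESeq2 called 179 and the fit of the refed groups alone 3, where edgeR on all libraries called 26.

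In fasted livers 0 of 30 tested members passed between the diets by edgeR, where 0.771% of all genes tested passed. Limma-voom also called 0, and DESeq2 called 3: Tk1, E2f1 and Birc5. Of all genes limma-voom called 110 and DESeq2 371, where edgeR called 115. The unadjusted p was under 0.05 for 1 higher and 5 lower members, where 5.1% and 5.71% of all genes tested were so. Libraries did not overlap for 1 higher member, Mcm7, and 4 lower ones, Tk1, E2f1, Cdk1 and Birc5, where 3.67% and 4.4% of all genes tested were so. The median log2 fold change of the members was -0.08, against 0.01 over all genes tested. Without control refed library 4 in the fit, 2 members were called in fasted livers, Tk1 and E2f1, where 222 of all genes were called. The authors' deposited table for fasted livers calls 0 of the 28 members it lists, among 91 genes called.

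Tk1 had 7.31, 9.6, 9.63 and 11 CPM in low isoleucine fasted livers, against 20.1, 25.1, 12.6 and 21.4 CPM in control fasted livers, with a log2 fold change of -1.08 (SE 0.251, adjusted p = 0.0624) by edgeR. Its exons overlap those of Afmid on the other strand, so that reads can be shared, and 1 of its 16 counts was not whole. In refed livers the Tk1 groups overlapped, with 13.3, 9.89, 10.6 and 15.8 CPM on low isoleucine and the control levels given above. Mcm7 stood higher on low isoleucine, with 10.1, 11.2, 11 and 11.8 CPM in low isoleucine fasted livers, against 7.61, 8.19, 8.43 and 8.02 CPM in control fasted livers (log2 fold change 0.45 (SE 0.14, adjusted p = 0.184) by edgeR). These 2 genes and Birc5 differed in value between the diets mainly in fasted livers, although none had an interaction that passed (adjusted p 0.806, 0.816 and 0.796 by edgeR).

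Averaged over both feeding states, E2f1 and Cdk1 were lower on low isoleucine. By edgeR 2 of 30 tested members fell and 0 rose, where 0.938% of all genes tested fell and 0.576% rose. E2f1, a transcription factor that drives S phase genes, had 0.352, 0.496, 0.389 and 0.459 CPM in low isoleucine refed livers, against 1.17, 1.34, 0.719 and 0.893 CPM in control refed livers. In fasted livers it had 0.367, 0.345, 0.452 and 0.244 CPM on low isoleucine, against 0.782, 0.853, 0.725 and 0.802 CPM on the control diet. Every low isoleucine library was below every control library. The mean log2 fold change by edgeR was -1.22 (SE 0.187, adjusted p = 0.00396), from -1.27 (SE 0.26, adjusted p = 0.0599) in refed and -1.16 (SE 0.27, adjusted p = 0.0601) in fasted livers. Its counts ran from 8.43 to 40 reads per library, and the call held on leaving out each of the 16 libraries in turn (adjusted p 0.00207 to 0.0126). E2f1 (ENSMUSG00000027490) lies on chromosome 2 from 154559407 to 154569892.

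Cdk1, the mitotic kinase, had 0.382, 0.124, 0.359 and 0.201 CPM in low isoleucine refed livers, against 0.563, 0.638, 0.319 and 0.868 CPM in control refed livers. In fasted livers it had 0.367, 0.276, 0.391 and 0.428 CPM on low isoleucine, against 0.604, 0.58, 0.898 and 1.16 CPM on the control diet. The fasted diets did not overlap, and the refed diets did. The mean log2 fold change by edgeR was -1.16 (SE 0.267, adjusted p = 0.0378), with -1.17 in refed and -1.14 in fasted livers. Counts were 4 to 36 reads per library, and the call was lost without any of 9 of the 16 libraries in turn (adjusted p 0.0507 to 0.0897). Without control refed library 4 both genes were called, and so were Tk1 and Atad2, where 473 of all genes were called.

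Mitotic messages as a whole were sparse, and 5 of the 14 were too scarce to test. The summed level of the 14 G2/M and mitosis genes was 4.64 ± 0.396 CPM in low isoleucine refed livers and 7.59 ± 1.71 CPM in control refed livers (SD, n = 4 each). In fasted livers the sum was 5.03 ± 0.556 CPM on low isoleucine and 6.53 ± 1.11 CPM on the control diet. The refed ranges did not overlap (4.12 to 5.09 on low isoleucine, against 5.71 to 9.24 CPM on the control diet), while the fasted ranges did. Between feeding states on the control diet the ranges overlapped. For comparison, the summed Mcm2 to Mcm7 level was 20.7 ± 2.09 CPM in low isoleucine refed and 27.2 ± 5.39 CPM in control refed livers, against 19.7 ± 0.345 CPM in low isoleucine fasted and 17.5 ± 1.19 CPM in control fasted livers. Control refed library 4 alone had an Mcm sum of 35 CPM, and the other 3 had 26.3, 24.4 and 23 CPM, still above the control fasted range of 15.9 to 18.7 CPM.

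**Figure D4:**
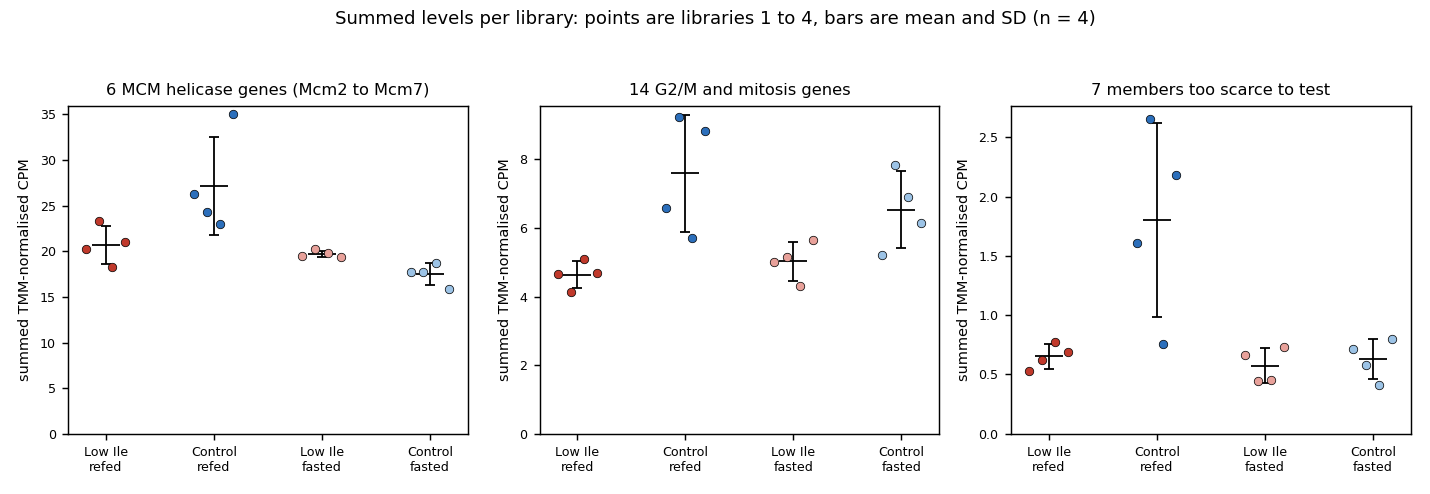
Summed TMM-normalised CPM per library (points), with group mean and SD (n = 4), for the 6 genes Mcm2 to Mcm7, for the 14 G2/M and mitosis genes, and for the 7 members too scarce to test. The highest library of each panel is a control refed one, and for the 7 scarce genes they span from 0.758 to 2.65 CPM.

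On refeeding of control mice 4 of 12 tested licensing and fork genes rose and 0 fell, while 0 of 9 tested mitotic genes rose and 1 fell, where 8.91% of all genes tested rose and 8.2% fell. The median log2 fold changes were 0.39 for licensing and fork genes and 0.60 for mitotic genes. The difference between these lists was not tested. On the low isoleucine diet the medians were 0.08 and -0.13. Between diets in refed livers the medians were -0.41 and -0.89. All these medians cover tested members alone, 12 of 13 licensing and fork genes and 9 of 14 mitotic genes. A scarce gene can pass the filter through the group where it is high, so they do not describe the whole lists.

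Birc5 was the mitotic gene that fell. It had 0.603, 1.01, 0.679 and 0.62 CPM in control refed livers, against 1.39, 2.9, 1.55 and 0.866 CPM in control fasted livers. In low isoleucine livers it had 0.705, 0.434, 0.599 and 0.574 CPM when refed, against 0.551, 0.76, 0.391 and 0.825 CPM when fasted. Control fasted livers were the highest group and control fasted library 2 the highest library. The log2 fold change on refeeding by edgeR was -1.20 (SE 0.343, adjusted p = 0.0234) on the control diet and -0.13 (SE 0.359, adjusted p = 0.849) on the low isoleucine diet. The control call was lost without control fasted library 2 or control refed library 1 or 3 (adjusted p 0.0579 to 0.113), and without control fasted library 2 the log2 fold change was -0.80.

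The proliferation marker Mki67 had 0.587, 0.248, 0.718 and 0.689 CPM in low isoleucine refed livers, against 0.643, 1.88, 0.599 and 1.41 CPM in control refed livers. In fasted livers it had 0.845, 0.76, 0.421 and 0.642 CPM on low isoleucine, against 0.426, 0.819, 0.967 and 0.449 CPM on the control diet. All groups overlapped, and control refed libraries 2 and 4 were the highest. Top2a had 0.205, 0.341, 0.509 and 0.344 CPM in low isoleucine refed livers, against 0.643, 0.84, 0.719 and 1.12 CPM in control refed livers, which did not overlap (log2 fold change -1.25 (SE 0.356, adjusted p = 0.222) by edgeR). Ccnb2 had 0.117, 0.186, 0.239 and 0.23 CPM in low isoleucine refed livers, against 0.643, 0.403, 0.239 and 0.546 CPM in control refed livers, where the highest low isoleucine library all but met the lowest control one. Its counts were 4 to 22 reads per library. Ccna2 (cyclin A2), Bub1b and Foxm1, a mitotic transcription factor, had log2 fold changes between refed diets of -0.89, -0.76 and -0.42, and none passed. Aurka, the Aurora A kinase, differed least of the mitotic genes between refed diets, at 0.10.

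The 7 members left untested were Cdc6, Uhrf1 (a reader of methylated DNA at the fork), Ccnb1 (cyclin B1), Cdc20, Aurkb, Bub1 and Plk1. Their counts ran from 0 to 22 reads per library. Summed, they reached 0.529, 0.62, 0.778 and 0.689 CPM in low isoleucine refed livers, against 1.61, 2.65, 0.758 and 2.18 CPM in control refed livers. Fasted livers had 0.661, 0.449, 0.452 and 0.733 CPM on low isoleucine, against 0.711, 0.58, 0.414 and 0.802 CPM on the control diet. Control refed libraries 1, 2 and 4 stood above the other 13, and library 3 did not. In the fit with no filter Aurkb had a log2 fold change between refed diets of -2.61 (SE 0.666, adjusted p = 0.169) and Uhrf1 of -1.94 (SE 0.575, adjusted p = 0.33), by edgeR. Neither passed.

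Other genes of the same pathways were read from lists of 122 genes, of which 97 were tested and none belongs to the 37. Between diets 0 passed in refed and 0 in fasted livers by edgeR, where 0.174% and 0.771% of all genes tested passed. The unadjusted p was under 0.05 for 4 higher and 10 lower in refed livers and for 5 higher and 4 lower in fasted livers. Of all genes tested 3.95% were so higher and 5.8% lower in refed livers, and 5.1% higher and 5.71% lower in fasted livers. On refeeding 10 rose and 9 fell on the low isoleucine diet, and 15 rose and 8 fell on the control diet. Of all genes tested 9.6% rose and 11.8% fell on low isoleucine, and 8.91% rose and 8.2% fell on the control diet; these shares apply to each list described next. DESeq2 called 3 higher and 1 lower in refed livers and 0 in fasted livers, and limma-voom called 0 in both. Of all genes DESeq2 called 179 in refed and 371 in fasted livers, and limma-voom 25 and 110. In the mean over feeding states Pole4, a polymerase epsilon subunit, rose on low isoleucine (0.36) and the G1 kinase gene Cdk6 fell (-0.38). Of all genes tested 0.576% rose and 0.938% fell in that mean. The median log2 fold changes of the 97 were 0.07 and 0.17 on refeeding of low isoleucine and control mice.

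Among the other E2F factors and their partners, 2 of 8 tested genes rose and 2 fell on refeeding on the low isoleucine diet (9.6% and 11.8% of all genes tested), and 3 rose and 2 fell on the control diet (8.91% and 8.2%). E2f2, an activator, averaged 0.639 ± 0.334 CPM in low isoleucine refed livers, against 0.263 ± 0.062 CPM in low isoleucine fasted livers (SD, n = 4 each). Control livers averaged 1.13 ± 0.216 CPM when refed, against 0.145 ± 0.0762 CPM when fasted. Its log2 fold changes by edgeR were 1.27 (SE 0.385, adjusted p = 0.0258) on the low isoleucine and 2.94 (SE 0.41, adjusted p = 1.75e-04) on the control diet. E2f8, an atypical repressor, moved the opposite way, with -2.29 (SE 0.263, adjusted p = 1.69e-05) on the low isoleucine and -1.38 (SE 0.258, adjusted p = 0.00153) on the control diet, by edgeR. E2f4 rose (0.61 and 0.68) and the dimer partner Tfdp2 fell (-0.99 and -0.92) on the low isoleucine and control diets.

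Of the other G1 cyclins and kinases, 0 of 7 rose and 2 fell on the low isoleucine diet (9.6% and 11.8% of all genes tested), and 3 rose and 2 fell on the control diet (8.91% and 8.2%). Cdk2 fell (-0.89 and -0.70 on the low isoleucine and control diets), and so did Ccnd3, cyclin D3 (-0.81 and -0.73). Cdk4, the partner of cyclin D (0.47), Skp2, a ubiquitin ligase subunit (1.20), and Cdc25a, a phosphatase that activates kinases (0.69), were the 3 that rose on the control diet. The pocket protein and inhibitor list had 1 of 8 genes higher and 2 lower on each diet. There Rbl2, a pocket protein of resting cells, fell (-1.19 on low isoleucine and -1.09 on the control diet) and Rbl1 rose (0.81 and 1.05). The kinase inhibitor gene Cdkn2c fell on low isoleucine (-0.62), and Cdkn2d on the control diet (-0.87).

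Polymerase, clamp loader and lagging strand genes had 3 of 22 higher on the low isoleucine diet and 2 of 22 on the control diet, with 0 lower on each, close to the 9.6% and 8.91% of all genes tested that rose. The flap nuclease Fen1 rose by 0.74 on low isoleucine and 1.42 on the control diet on the log2 scale, and the clamp loader gene Rfc3 by 0.92 and 0.70. Pold2, a polymerase delta subunit, rose on low isoleucine (1.00). Of the origin recognition and loading genes 0 of 9 passed on low isoleucine and 1, Gins3, rose on the control diet (1.24). Of the spindle, kinetochore and cytokinesis genes 3 of 20 rose and 3 fell on low isoleucine, and 3 rose and 1 fell on the control diet. The centrosomal kinase Nek2 fell on each diet (-2.21 on low isoleucine and -1.36 on the control diet), and the kinetochore gene Spc24 rose on each (0.86 and 0.78). On low isoleucine the checkpoint gene Mad2l1 rose (1.34) and the kinetochore gene Spc25 fell (-1.14). On the control diet Bub3 (0.43) and Incenp, a partner of Aurora B (1.02), rose.

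Markers of other cells were read beside these results. The 11 Kupffer cell and macrophage markers, none of them at 0 in all libraries, summed to 189 to 332 CPM in low isoleucine refed and 235 to 446 CPM in control refed livers. In fasted livers they summed to 201 to 292 CPM on low isoleucine and 313 to 410 CPM on the control diet, which did not overlap. By edgeR 0 of the 11 passed in either feeding state, and 1, Clec4f, fell on low isoleucine in the mean over feeding states. Of all genes tested 0.174% passed in refed and 0.771% in fasted livers, and 0.938% fell in that mean. The unadjusted p was under 0.05 for 2 lower in refed, 6 lower in fasted and 9 lower in that mean. Among all genes tested, 5.8% were so in refed, 5.71% in fasted and 1202 of 14920 in that mean. Between feeding states on the control diet 0 of the 11 had an unadjusted p under 0.05, where 2263 of 14920 genes tested were so and higher and 2118 lower. The part of these cells in the diet differences of E2f1, Cdk1 and Atad2 was not tested.

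The 6 B and plasma cell markers, none of them at 0 in all libraries, summed to 4.55 to 5.95 CPM in low isoleucine refed and 4.15 to 29.4 CPM in control refed livers, and to 2.81 to 14.5 CPM in low isoleucine fasted and 5.83 to 10.3 CPM in control fasted livers. Between diets in refed livers 6 of 6 were negative in value (median log2 fold change -1.07, 2 with an unadjusted p under 0.05), on refeeding of control mice 6 of 6 were positive (0.69), and for the interaction 5 of 6 were negative (-0.998). Of all genes tested 52.4% were negative, 51.3% positive and 52.3% negative in these 3 comparisons, and 5.8% had a lower value with an unadjusted p under 0.05 between the refed diets. None of the 6 passed by edgeR in any comparison. Without control refed library 4 these medians were -0.29, -0.15 and -0.08, where those of the members were -0.50, 0.44 and -0.37.

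The 8 erythroid markers summed to 188 to 273 CPM in low isoleucine refed and 249.3 to 322 CPM in control refed livers, against 271 to 657 CPM in low isoleucine fasted and 218 to 268 CPM in control fasted livers. By edgeR 1 of 7 tested, the globin gene Hbb-bs, rose on low isoleucine in fasted livers, and the unadjusted p of the interaction was under 0.05 for 4 lower. Of all genes tested 0.771% passed in fasted livers in either direction, and 3.47% were lower for the interaction at that unadjusted p. Of the sinusoidal endothelial, stellate cell, cholangiocyte, T and NK cell and neutrophil markers, 0 passed between the diets in either feeding state. Of all genes tested 0.174% passed in refed and 0.771% in fasted livers. The part of erythroid cells in the members' differences was not tested.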

How the data were processed

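Stranded, poly-A enriched liver libraries were sequenced and their lanes merged per sample, per the labels' protocols. The deposited table gives an RSEM expected count for each gene and library, and 10.2% of the values are not whole to within 1e-06. No source used here gives the aligner, build, annotation or strand setting. For each diet comparison the authors deposited log2 fold changes, an F score and p-values with adjustment, per the file headers. Tools listed in the submitters' processing notes are R 3.5.3, limma and edgeR.

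Rounded counts were fitted in R 4.3.3 with edgeR 4.0.16 (TMM, filterByExpr with minimum count 10 and total 15, robust quasi-likelihood fit over 16 libraries, Benjamini-Hochberg over 14920 genes, threshold 0.05). An SE is the absolute log2 fold change over the square root of F. Alternatives were limma-voom (limma 3.58.1), DESeq2 1.42.0, other scaling and filters, a replicate block, the compared groups alone, and each library left out. Symbols were matched for 51633 of 51912 identifiers. The method was tested on simulated counts, in which the scarcest genes were left unchanged. Between refed diets it recovered 22.9%, 55.7% and 95% of changes of 1.5, 2 and 4 fold. For refeeding of control mice it recovered 27.1%, 70% and 90%. Not passing therefore does not show that a gene was unchanged.

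The members and lists were chosen with earlier results of these data known. Members passing in any of 7 comparisons are given in every library. From the other lists up to 4 passing genes per comparison are named by smallest p, and the mean feeding effect is named for 1 list. Further members were named after their values were seen. The titles carry a mark for each library within its group but do not number the mice, so p-values measure the spread between these libraries.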

Additional observations from a re-analysis of the deposited data

Results flagged for a closer look

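Of 80 sets of 4 libraries examined, 4 held a library far from the other 3, and chance alone gives about 1 in 20 such sets. Ccnd1 was at 17.47 CPM in control fasted library 3, against 10.73 to 11.43 CPM in the other control fasted libraries. The summed level of the 4 G1/S control genes, of which Ccnd1 makes up the greater part, was 20.41 CPM in that library, against 13.43 to 14.33 CPM in the others. The same sum was lowest in low isoleucine refed library 1, at 13.36 CPM against 21.16 to 22.57 CPM in the other low isoleucine refed libraries. Rrm1 was at 13.89 CPM in control refed library 4, against 9.472 to 10.06 CPM in the other control refed libraries. No member had every library moving one way on one diet and the opposite way on the other.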

How the results depend on the processing

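Against the 2 diet calls in refed and fasted livers (1 and 0 members), DESeq2 called 5 and 3, and a fit of the compared groups alone called 0 and 1. Of all genes DESeq2 called 179 and 371, and the compared groups alone 3 and 193, where the main fit called 26 and 115. Leaving out each library gave 0 to 2 members in refed and 0 to 2 in fasted livers, where 3 to 89 and 6 to 222 of all genes were called. The mean diet effect (2 members) had 9 calls by DESeq2, 1 with the replicate block and 1 to 4 without a library. Of all genes 603, 186 and 115 to 473 were called there. For refeeding, the low isoleucine count (1) was 2 with the compared groups alone and 1 to 2 without a library, and the control count (9) was 6 to 9. The compared groups alone called 3137 of all genes on the low isoleucine diet and 1729 on the control diet. The mean feeding effect (9) was 7 to 10 without a library, where 4438 to 5363 of all genes were called. The interaction (0) had 1 call by DESeq2, where 35 of all genes were called, and 0 without any library. The cause of these shifts was not tested. For 22 calls of single genes, 405 of 493 alternative fits kept the call, 88 lost it and 0 reversed. Scaling by DESeq2 size factors moved the median of all genes by at most 0.0124 on the log2 scale. For 24 pairs of libraries sharing a replicate mark, r of deviations ran from -0.325 to 0.323 (median 0.0311, 8 over 0.1). For 72 pairs with different marks it ran from -0.4255 to 0.387 (median -0.0243, 18 over 0.1). These ranges overlap, and whether the marks pair libraries was not tested. With the block Mcm6 on refeeding of control mice, Cdk1 between diets, and Mcm3 and Birc5 in the mean feeding effect were not called. Depth left 7 members untested, which had at most 22 reads in a library.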

Other observations

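Targets of p53, which can hold the cell cycle, were read from a list of 12 genes, 11 of them tested. On refeeding 1 rose and 0 fell on the low isoleucine diet, and 2 rose and 1 fell on the control diet, by edgeR, where 9.6% and 11.8% of all genes tested did on low isoleucine and 8.91% and 8.2% on the control diet. Gadd45a, a stress-induced growth arrest gene, rose on both. It averaged 20.3 ± 17 CPM in low isoleucine refed livers, against 1.61 ± 0.881 CPM in low isoleucine fasted livers (SD, n = 4 each). On the control diet it averaged 4.9 ± 2 CPM in refed livers, against 1.1 ± 0.312 CPM in fasted livers. Its log2 fold changes by edgeR were 3.67 (SE 0.572, adjusted p = 4.22e-04) on the low isoleucine and 2.14 (SE 0.578, adjusted p = 0.0193) on the control diet. The 4 low isoleucine refed libraries lay above the 4 control refed ones, without passing (2.06 (SE 0.522, adjusted p = 0.156) by edgeR). On the control diet Trp53inp1, a p53 cofactor, fell (-1.42) and Mdm2, the p53 ubiquitin ligase, rose (0.33). The kinase inhibitor gene Cdkn1a did not pass between the refed diets (1.30 (SE 0.646, adjusted p = 0.546) by edgeR). Its log2 fold change was larger in fasted livers (2.06) and 1.68 in the mean over feeding states, and neither passed. Between diets 0 of the 11 passed. By edgeR the unadjusted p was under 0.05 for 2 higher in fasted, 3 in refed livers and 3 in that mean, with 0 lower in each. Of all genes tested 5.1%, 3.95% and 937 of 14920 were so and higher.

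Condensin, cohesin and replication chromatin genes passed in neither diet's refeeding comparison, with 0 of 13 tested, and in the mean over diets 4 rose and 2 fell by edgeR, where 16.4% and 16.5% of all genes tested did. The histone chaperone genes Asf1b (1.07) and Chaf1a (0.84), the maintenance methyltransferase Dnmt1 (0.38) and the condensin subunit Smc2 (0.79) were the 4 that rose. The cohesin subunit Rad21 (-0.26) and the condensin subunit Smc4 (-0.42) fell.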
